A study of Rattus norvegicus with 9 samples.

Results

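The genes described here encode the subunits of the mitochondrial respiratory chain and of ATP synthase, with a few assembly factors that share their names. A gene was included when exactly 1 symbol of the array annotation belonged to its probe set and that symbol began with Nduf (complex I), Sdh (complex II), Uqcr (complex III), Cox4 to Cox8 (complex IV) or Atp5 (complex V). The prefixes matched 95 probe sets, and for each gene the brightest probe set, by its mean on all arrays, was kept. This gave 83 of the 14506 genes with a symbol of their own: 37 for complex I, 7 for complex II, 7 for complex III, 16 for complex IV and 16 for complex V. Of the 83, 72 encode structural subunits, 6 assembly factors, 3 other proteins with the same prefix (Ndufa4, Cox7a2l and Atp5if1) and 2 are pseudogenes. The rule used names alone and no measured value, except that the brighter probe set was taken where a gene had several.

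Complexes I to IV carry electrons from NADH and succinate to oxygen. Complexes I, III and IV pump protons across the inner mitochondrial membrane on the way, and complex V uses the returning protons to make ATP. Neurons meet most of their energy demand in this way. Circulating blood is a mixture of white cells, platelets and red cells, and red cells lose their mitochondria as they mature. Most subunits are encoded in the nucleus and must be made in fixed ratios with one another. Cytochrome oxidase is unusual in having several subunits with isoforms that are expressed in particular tissues.

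RNA came from whole blood, punched hippocampus (HC) and punched prefrontal cortex (PFC) of untreated male Wistar rats, and the 3 tissues of each of rats 2, 5 and 7 were hybridized to Rat Gene 1.0 ST arrays, 9 arrays in all. The methods give 6-week-old animals that were housed for 1 week before sampling. Wistar is an outbred stock, blood was collected into PAXgene tubes without separating its cells, and punches hold all cell types of a region. The labels speak of 6 rats, the series description of 3 and the methods of 4 with 1 sample omitted, so the number of animals used here is that of the arrays. Values are RMA values (robust multi-array average) taken to be log2 values, so that a difference of 1 is a 2-fold difference. A brain value is the average of HC and PFC. The level of one probe set cannot be set against that of another, so levels are compared between tissues within a gene only.

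The tissue labels were checked against marker genes. All 4 erythroid markers on the array (Hbb, Alas2, Ahsp and Slc4a1) and all 3 platelet, 3 T cell, 2 B cell and 3 neutrophil markers were present in blood. All 4 neuronal and 4 astrocyte markers were present in both brain regions, and none of them in blood. The 3 oligodendrocyte markers were present in both brain regions, but Mbp (mean 6.53) and Mog (6.23) also passed the cut-off in blood, and the T cell marker Cd3e did in HC (7.14). The log2 of the summed erythroid level was 14.96 to 15.06 in blood, 8.67 to 9.16 in HC and 9.53 to 10.28 in PFC. Alas2, Ahsp and Slc4a1 did not reach the presence cut-off in either brain region, and Hbb did in both. The SD over all probe sets of an array was 1.85 to 1.90 for the blood arrays and 2.18 to 2.21 for the brain arrays.

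Nearly all respiratory genes were present in all 3 tissues. A probe set is called present when the mean of its 3 arrays is above 6.2. By this measure 75 of the 83 genes (90.4%) were present in blood, 77 (92.8%) in HC and 78 (94.0%) in PFC, against 55.3%, 58% and 58.2% of the 14506 genes, and 74 were present in each tissue, against 45% of the genes. The genes Cox6c-ps1, Cox8c, Cox4i2, Cox8b and Cox6b2 reached the cut-off in no tissue. Their highest tissue means were 3.93 to 6.11, while Ndufa2, Cox6a2 and Sdhaf3, just above the cut-off, had highest means of 6.59 to 6.60. Of the 78 members tested, 4 were not present in every tissue. Ndufa2, Ndufaf1 and Sdhaf3 were present in HC and PFC but not in blood, and Cox6a2 in blood and PFC but not in HC.

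Most respiratory genes were higher in brain than in blood. Genes of complexes I, II and III were mostly higher, those of complex V were mixed, and those of complex IV were split about evenly. The difference between brain and blood was tested with limma over 16884 probe sets that were present in at least 1 tissue. At an adjusted p under 0.05, 54 of the 78 members tested (69.2%) were higher in brain and 14 (17.9%) lower, against 48.8% and 37.4% of all probe sets tested. Of 19 housekeeping genes, used below to scale the arrays, 14 were higher and 3 lower, with a median difference of 1.13. Being higher in brain was therefore not particular to the respiratory genes. Among the 74 members present in every tissue, 51 were higher and 13 lower, but no share of all probe sets present in every tissue is given beside these counts. Differences of at least 1 were found for 31 higher and 5 lower members, against 29% and 19.8% of all. On all 6 brain arrays the value was above all 3 blood arrays for 52 of the 78 and below them for 11, against 44.8% and 34.7%. The summed erythroid level given above was also higher on every blood array than on any brain array, and its part in the members lower in brain was not tested. In bulk samples, fewer cells of a type and less RNA per cell cannot be told apart.

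Over all 83 members the median difference was 0.61, against 0.22 over the probe sets tested and -0.11 over all 14506 genes without a filter. For complex II the median was 1.25 and its values in rats 2, 5 and 7 were 1.35, 1.52 and 0.88. The median of complex III was 0.93 (1.13, 1.10 and 0.86 in the 3 rats) and that of complex I 0.90 (0.92, 0.88 and 0.99). Complex V followed with 0.39 (0.45, 0.57 and 0.41) and complex IV with -0.21 (-0.08, -0.31 and -0.18). Complex IV was thus the only complex with a median below 0, in each rat. It alone held genes present in no tissue (Cox6c-ps1, Cox8c, Cox4i2, Cox8b and Cox6b2), and its median includes them. Complexes I and III did not differ beyond their spread over rats. Complex II was not above them in each rat either, since in rat 7 complex I (0.99) lay above complexes II (0.88) and III (0.86). These medians depend on the scaling of the arrays. When each array was centred on a panel of 19 housekeeping genes, which were themselves mostly higher in brain, the median of all probe sets moved to -0.47 and those of complexes I to V to 0.22, 0.56, 0.25, -0.89 and -0.30, so that the sign of complex V turned while all but complex IV stayed above that of all probe sets. Under that scaling 34 of the 54 higher members were still higher and 5 were lower instead, and all 14 lower members were still lower.

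**Figure D1:**
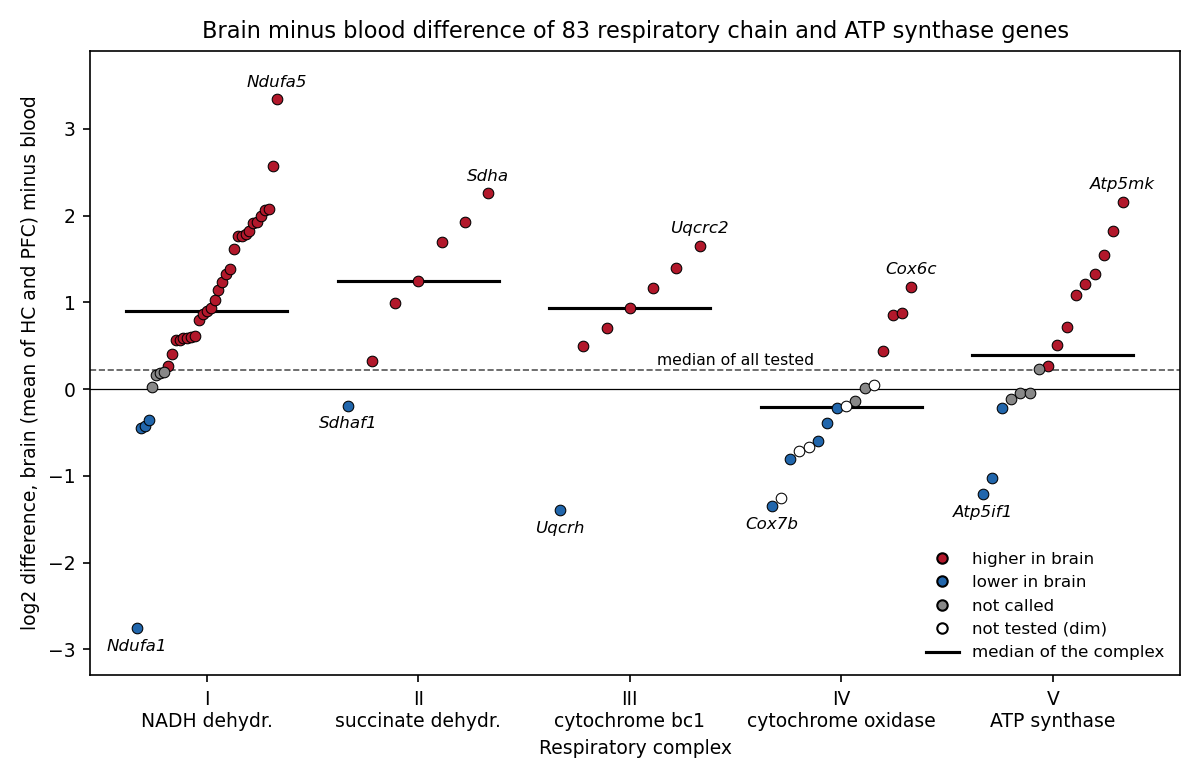
Log2 difference between brain and blood (vertical axis, mean of HC and PFC minus blood) of each of the 83 genes, ordered within complexes I to V. Each point is 1 gene, filled by its call, black bars are the medians of the complexes (0.90, 1.25, 0.93, -0.21 and 0.39) and the dashed line is the median of all probe sets tested (0.22). Complexes I, III, IV and V each hold a gene that was lower in brain by more than 1.

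The promoters of these genes were searched for sites of factors known to act on nuclear genes for mitochondrial proteins, which the rule did not use. Promoters are shown for the gene with the widest positive difference in each of complexes I to III, and for 3 of the genes with the widest negative differences, to let the regions of genes that differ in direction be compared. RefSeq promoters (assembly GRCr8, 250 bases before to 50 after the annotated start) were found for 73 of the 83. The 200 bases before the start are printed 5′ to 3′ on the strand of the gene. Capitals mark matches to short motifs, each searched on both strands and counted once per promoter where matches overlap. For nuclear respiratory factor 1 (NRF1) the core of its site, GCGCANGCG, was used. Ets factors were represented by the core CCGGAAG that they bind. The GATA factor site was AGATAA.
Ndufa5, chr4:53971236-53971435, minus strand: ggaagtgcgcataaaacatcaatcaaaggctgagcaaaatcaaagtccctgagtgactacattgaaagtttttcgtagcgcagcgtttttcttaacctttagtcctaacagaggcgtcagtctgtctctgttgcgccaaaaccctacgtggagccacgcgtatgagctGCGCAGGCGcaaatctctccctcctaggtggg
Sdha, chr1:30764353-30764552, plus strand: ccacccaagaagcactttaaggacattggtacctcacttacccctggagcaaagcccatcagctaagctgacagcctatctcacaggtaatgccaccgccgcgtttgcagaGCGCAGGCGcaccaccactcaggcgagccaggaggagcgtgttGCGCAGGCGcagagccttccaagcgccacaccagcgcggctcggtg
Uqcrc2, chr1:184599040-184599239, plus strand: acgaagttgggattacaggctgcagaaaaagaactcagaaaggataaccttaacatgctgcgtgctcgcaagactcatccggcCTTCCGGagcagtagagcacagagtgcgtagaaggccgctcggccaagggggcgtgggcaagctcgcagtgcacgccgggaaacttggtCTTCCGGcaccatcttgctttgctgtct
Ndufa1, chrX:121293556-121293755, minus strand: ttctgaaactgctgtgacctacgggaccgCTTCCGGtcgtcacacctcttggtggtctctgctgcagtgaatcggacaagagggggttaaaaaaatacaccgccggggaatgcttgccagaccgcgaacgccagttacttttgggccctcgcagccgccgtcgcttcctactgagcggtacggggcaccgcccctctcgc
Uqcrh, chr5:134790883-134791082, minus strand: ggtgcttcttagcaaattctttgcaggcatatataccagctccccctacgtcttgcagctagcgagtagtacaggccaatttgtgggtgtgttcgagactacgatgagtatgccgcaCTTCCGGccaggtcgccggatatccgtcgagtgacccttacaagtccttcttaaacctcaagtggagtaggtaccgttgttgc
Cox7b, chrX:75148836-75149035, plus strand: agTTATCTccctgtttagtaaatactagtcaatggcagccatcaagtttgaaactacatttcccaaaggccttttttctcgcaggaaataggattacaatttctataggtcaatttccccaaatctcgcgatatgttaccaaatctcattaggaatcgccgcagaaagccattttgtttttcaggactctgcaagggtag
In the printed stretches Ndufa5 held 1 NRF1 match and Sdha 2, with another that overlaps its start. Uqcrc2 held 2 Ets matches and Ndufa1 and Uqcrh 1 each, and Cox7b held a GATA match alone. NRF1, the Ets factor GABP and YY1 are known activators of such genes, and GATA1 is the main erythroid factor. An NRF1 match was found in 19 of the 73 promoters (26%), against 5.8% of 33469 promoters of the same length in the table. Each member was counted by 1 promoter. The 33469 were not reduced to 1 per gene or limited to genes present in these tissues, so the 2 sets are unlike. An Ets match was found in 24 (32.9%, against 8.75%) and the YY1 site AAGATGGCG in 8 (11%, against 1.73%), while AGATAA was found in 9 (12.3%, against 11.6%). Members that were higher and lower in brain both held NRF1 and Ets matches. NRF1 matches were in 13 of 48 higher and 4 of 12 lower members, Ets matches in 16 and 5, YY1 matches in 7 and none, and GATA matches in 5 and 3. A match is a description of letters in this window, not of binding.

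In complex I, 29 of the 37 members were higher in brain, 4 were lower and 4 passed in neither direction. The 6 core subunits of the peripheral arm on the list were all higher, by 0.59 to 2.57 with a median of 1.76. Of the 8 accessory subunits of that arm 6 were higher and 1 lower (median 0.75), and of the 18 accessory subunits of the membrane arm 13 were higher and 3 lower (median 0.72). Ndufa5, an accessory subunit of the peripheral arm (probe set 10861333), had the widest difference. Its values were 6.75, 6.86 and 6.42 in the blood of rats 2, 5 and 7, 10.13, 10.06 and 10.11 in HC, and 9.80, 10.05 and 9.93 in PFC. All brain arrays lay far above all blood arrays, a 10.1-fold difference (log2 3.34 ± 0.104, SE, n = 3 rats, limma adjusted p = 9.94e-10). Ndufs1 carries iron-sulfur clusters in the module that takes electrons from NADH. It read 7.81, 7.79 and 8.19 in blood, 10.36 on all 3 HC arrays, and 10.63, 10.68 and 10.63 in PFC, again with no overlap (2.57 ± 0.0953, limma adjusted p = 3.1e-09). Ndufs5, of the membrane arm, was higher by 2.07 ± 0.129, and its other probe set gave 1.64. Ndufa4, named as a complex I subunit but now placed with cytochrome oxidase, was higher by 2.06 ± 0.0742, with 9.76 to 9.98 in blood and 11.87 to 11.96 in brain.

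The clearest exception in complex I was Ndufa1, a small membrane arm subunit encoded on the X chromosome that is needed to assemble the complex. Its probe set (10931991) read 10.84, 10.61 and 10.53 in blood, 7.70, 7.97 and 7.97 in HC, and 7.97, 7.90 and 7.89 in PFC. Every blood array lay above every brain array, and blood was 6.78-fold higher (-2.76 ± 0.0956, limma adjusted p = 1.94e-09). Ndufa12, of the peripheral arm, was lower in brain by a much smaller amount (-0.45 ± 0.0836), and Ndufb11, of the membrane arm, by a similar one (-0.42 ± 0.0993). Ndufv3, chosen after its values were seen, was the 1 member whose probe sets went in opposite directions, with 0.61 for the brighter and -0.72 for the other. Ndufa10, also chosen afterwards, read low on its own probe set (6.29 to 7.10 on the 9 arrays, difference 0.40), while a probe set shared with the copy Ndufa10l1 gave 1.63, so the level of either gene is uncertain.

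All 4 subunits of complex II, succinate dehydrogenase, were higher in brain. This complex also belongs to the citric acid cycle and is encoded in the nucleus alone. Sdha, the flavoprotein that oxidises succinate (probe set 10702467), read 8.30, 7.81 and 8.05 in blood, 10.26, 10.27 and 10.21 in HC, and 10.41, 10.42 and 10.33 in PFC. No blood array reached a brain array, and the difference was 4.79-fold (2.26 ± 0.103, limma adjusted p = 1.36e-08). The iron-sulfur subunit Sdhb followed with 1.69 ± 0.0921, and the membrane anchors Sdhc and Sdhd with 1.25 ± 0.115 and 0.99 ± 0.0962. Among the assembly factors, Sdhaf3 was higher by 1.93 ± 0.142, but its blood values of 4.22 to 4.84 lie under 5.53, the 95th percentile of 1298 probe sets for chemosensory receptors in blood, which are not expected there, and with blood raised to that level the difference was 1.02. Sdhaf1 was lower (-0.19 ± 0.0707, limma adjusted p = 0.0314), and this call was lost with the rat as a block (adjusted p = 0.0525), with arrays centred on the median (0.168) and without the blood array of rat 7, the HC array of rat 2 or any 1 of the PFC arrays (0.0502 to 0.0784).

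In complex III, which passes electrons from ubiquinol to cytochrome c, 6 of 7 members were higher in brain. The matrix-facing core protein Uqcrc2 (probe set 10710427) read 8.65, 8.62 and 8.84 in blood, 10.33, 10.36 and 10.28 in HC, and 10.37, 10.42 and 10.34 in PFC (1.65 ± 0.0753, limma adjusted p = 1.4e-08). The small subunits Uqcr11 and Uqcrb were higher by 1.39 ± 0.0697 and 1.16 ± 0.0671, and the 2 further probe sets of Uqcrb gave 1.13 and 1.12. Uqcrh, the hinge protein that helps cytochrome c to bind, went the other way. It read 11.16, 11.16 and 11.05 in blood, 9.66, 9.58 and 9.74 in HC, and 9.90, 9.80 and 9.76 in PFC, so that blood was 2.62-fold higher with no overlap (-1.39 ± 0.0732, limma adjusted p = 4.06e-08).

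**Figure D2:**
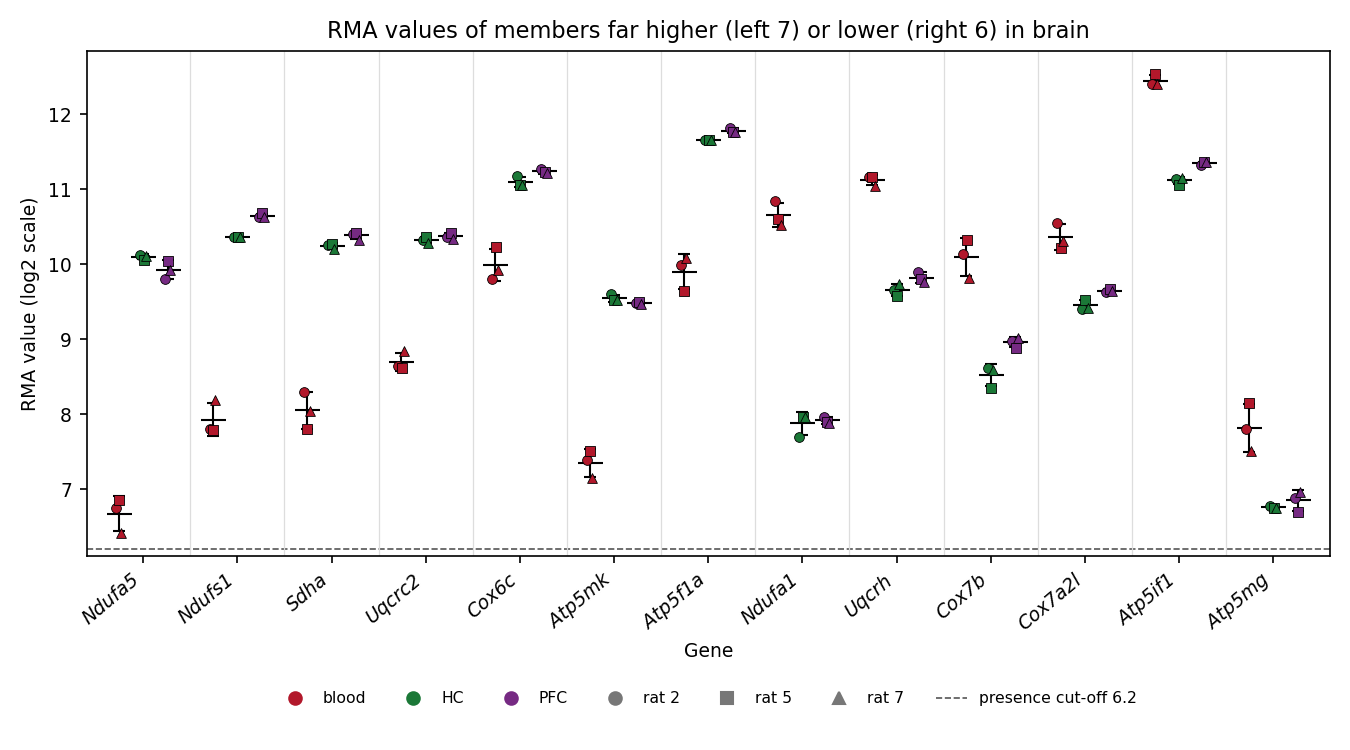
RMA values (vertical axis, log2 scale) of 7 genes far higher and 6 genes far lower in brain, on each of the 9 arrays. Colours are tissues, symbols are rats, bars are the mean and SD of 3 arrays and the dashed line is the presence cut-off of 6.2. Blood and brain arrays do not overlap for any of the 13 genes, for example Ndufa5 (6.42 to 6.86 in blood, 9.80 to 10.13 in brain) and Ndufa1 (10.53 to 10.84 in blood, 7.70 to 7.97 in brain).

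Complex IV, cytochrome oxidase, was divided. Of its 11 members tested, 4 were higher in brain, 5 lower and 2 passed in neither direction. Cox6c was highest by difference, with 9.81, 10.23 and 9.93 in blood and 11.06 to 11.27 in brain (1.18 ± 0.0957, limma adjusted p = 1.1e-06). Cox5a, a subunit on the matrix side, was higher by 0.88 ± 0.119 and Cox7c by 0.85 ± 0.116. On arrays centred on the housekeeping panel these last 2 calls were lost (limma adjusted p = 0.0657 and 0.169). The call of Cox5b, the other higher member (0.44), was lost there too (-0.25, limma adjusted p = 0.0663). Under that scaling Cox6c alone was still higher (0.49, limma adjusted p = 0.00624). The 5 lower members were still lower, and Cox4i1 and Cox8a, which had passed in neither direction, were lower as well. Cox7b (probe set 10934579) read 10.14, 10.32 and 9.82 in blood, 8.62, 8.35 and 8.59 in HC, and 8.98, 8.89 and 9.02 in PFC. Blood was above brain on every array, by 2.55-fold (-1.35 ± 0.116, limma adjusted p = 1.67e-06). Cox7a2l, which helps to join complexes III and IV into supercomplexes, was lower in brain (-0.81 ± 0.0858).

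The isoforms of cytochrome oxidase subunits that were among the members showed which of these paralogs the tissues shared. Cox6b1, Cox7a1 and Cox7b2 were not among the members, so their families are covered only in part. The ubiquitous isoforms Cox4i1 and Cox8a were present in all 3 tissues and passed the test in neither direction. Cox4i1 read 10.74 to 10.87 in blood, 10.50 to 10.64 in HC and 10.69 to 10.79 in PFC (-0.14 ± 0.0708, limma adjusted p = 0.0862), and Cox8a read 11.15 to 11.48, 11.24 to 11.34 and 11.17 to 11.43 (0.01 ± 0.0943, limma adjusted p = 0.932). Their blood and PFC ranges overlapped, but on arrays centred on the housekeeping panel both were lower in brain (-0.82 and -0.67). The lung isoform Cox4i2, the muscle isoform Cox8b and the testis isoforms Cox6b2 and Cox8c were present in none of them. The ubiquitous Cox6a1 read 12.03, 12.16 and 12.03 in blood and 11.35 to 11.58 in brain, and was lower in brain (-0.60 ± 0.0721). Cox7a2 was lower with overlapping arrays (-0.22 ± 0.0811, limma adjusted p = 0.0249), and its other probe set gave -0.25. The muscle isoform Cox6a2 had overlapping values in blood (6.59, 6.76 and 6.27) and PFC (6.67, 6.82 and 6.32), and lower ones in HC (5.65, 5.86 and 5.57). Its brain mean was called lower than blood (-0.39), although PFC was not below blood.

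**Figure D3:**
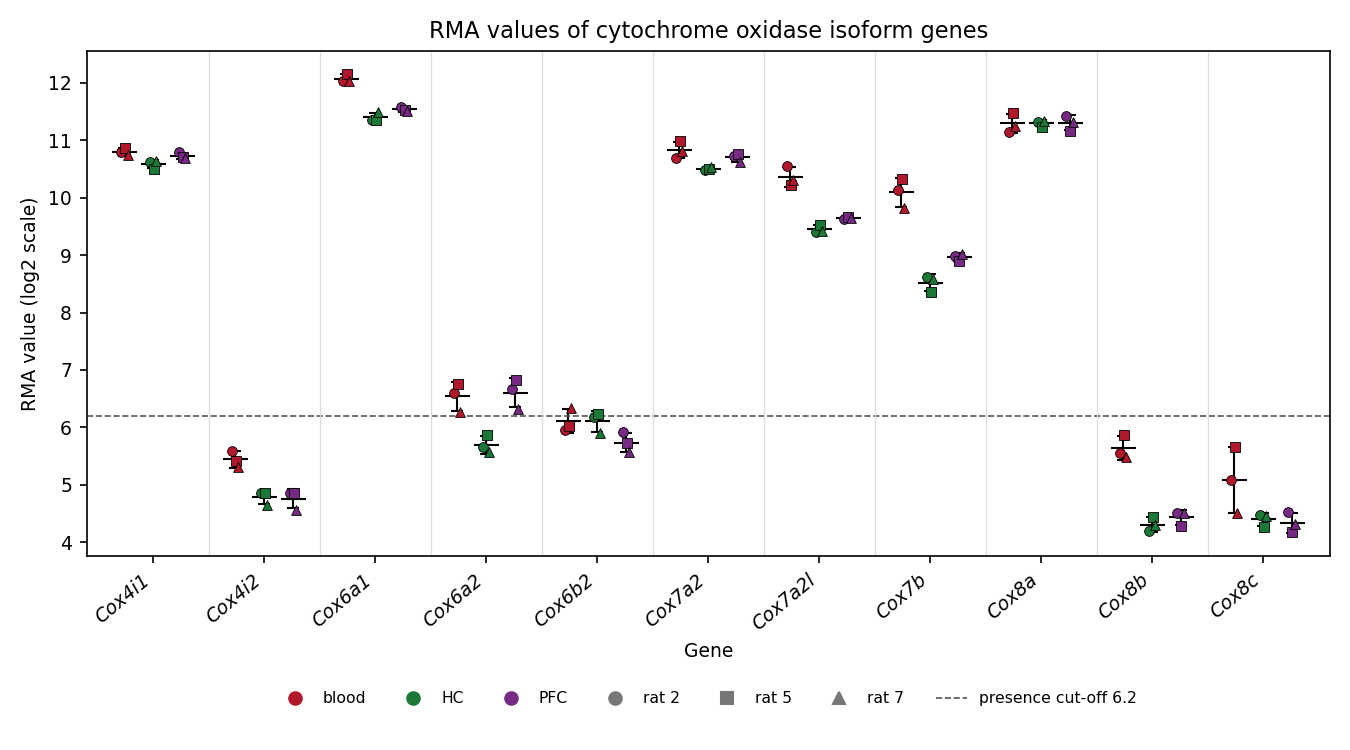
RMA values (vertical axis, log2 scale) of 11 cytochrome oxidase isoform genes on each of the 9 arrays, with tissues as colours, rats as symbols, mean and SD of 3 arrays as bars and the presence cut-off of 6.2 as a dashed line. Cox4i2, Cox6b2, Cox8b and Cox8c have tissue means below the line, and Cox6a2 lies below it in HC only.

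Complex V, ATP synthase, held 9 members that were higher in brain, 3 that were lower and 4 that passed in neither direction. In the catalytic F1 head and its stalk 3 of 5 were higher, and in the membrane part Fo with the peripheral stalk 6 of 10 were higher and 2 lower. The subunits alpha and beta of F1, which alternate in a ring, gave different results. Atp5f1a (alpha) read 9.99, 9.64 and 10.08 in blood, 11.66 on each HC array, and 11.82, 11.76 and 11.76 in PFC (1.82 ± 0.0981, limma adjusted p = 4.8e-08). Atp5f1b (beta, chosen after its values were seen) read 11.48, 11.91 and 11.66 in blood, 11.62, 11.52 and 11.55 in HC, and 11.70, 11.70 and 11.67 in PFC, and did not pass the test (-0.05 ± 0.0953, adjusted p = 0.605). The difference between the 2 genes was not tested. Atp5mk, a small Fo subunit that holds dimers of the enzyme together, had the widest difference of the complex (2.16 ± 0.0868), with 7.15 to 7.51 in blood and 9.47 to 9.60 in brain.

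The 3 genes for the c subunit, which encode the same mature protein of the rotating ring, differed in their tissue pattern. Atp5mc3 was higher in brain by 1.55 ± 0.0982 and Atp5mc1 by 1.21 ± 0.19. Atp5mc1 varied widely in blood (7.47, 6.71 and 7.78) and little in brain (8.47 to 8.63). Atp5mc2 read 9.53 to 9.69 in blood and 9.47 to 9.58 in brain, and did not pass the test (-0.04 ± 0.0698, limma adjusted p = 0.59). Its other probe set was lower in brain (-0.41, limma adjusted p = 0.00101). The members lower in brain were Atp5if1, the inhibitor that stops the enzyme from running in reverse, Atp5mg and Atp5pd. Atp5if1 (probe set 10872692) read 12.40, 12.54 and 12.40 in blood, 11.14, 11.06 and 11.15 in HC, and 11.32, 11.36 and 11.36 in PFC, a 2.32-fold higher level in blood with no overlap (-1.21 ± 0.0689, limma adjusted p = 7.02e-08). Atp5mg, a membrane subunit, was lower in brain (-1.02 ± 0.13). Atp5pd, of the peripheral stalk (chosen after its values were seen), was called lower with overlapping arrays (-0.22 ± 0.0835). Its difference in rat 7 was 0.01, in the other direction. The other probe set of Atp5pd was also lower in brain (-0.26, limma adjusted p = 0.0055).

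The values were more variable in blood than in brain. The median SD over 3 arrays was 0.17 for the members tested in blood, 0.051 in HC and 0.052 in PFC, and over all probe sets tested it was 0.22, 0.068 and 0.077. Of the 3 blood arrays, that of rat 5 was the lowest or the highest for 71 of the 78 members (91.0%), against 76.3% of all probe sets tested. On the same array the log2 of the summed T cell level was 11.31, against 11.92 and 12.12 in rats 2 and 7, that of the neutrophil markers 11.26, against 10.96 and 10.51, that of the platelet markers 12.02, against 12.29 and 12.58, and that of the erythroid markers 15.06, against 14.99 and 14.96. The part of blood cell makeup in these values was not tested.

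Few members passed the test between the brain regions when all 9 arrays were fitted, and those that did were lower in HC. That fit uses the same spread of a probe set for all 3 tissues, and values were most variable in blood. By limma over 9 arrays 2 of the 78 members (2.56%) were lower in HC than in PFC, against 4.66% of all probe sets tested, and none was higher, against 4.51%. At an unadjusted p under 0.05 the counts were 10 lower and 0 higher, against 9.42% and 9.52% of all probe sets tested. HC was below PFC in each of the 3 rats for 48 of the 78 members (61.5%), against 28.2% of all, and above it in each rat for 4, against 28.6%. All 3 HC arrays lay below all 3 PFC arrays for 38 members (48.7%), against 21%, and above them for 3, against 20.9%. The median difference of all 83 members was -0.09, with -0.12, -0.13 and -0.05 in rats 2, 5 and 7, against 0.00 for all probe sets tested. The medians of complexes I to V were -0.10, -0.08, -0.14, -0.11 and -0.07. The housekeeping panel also had a median below 0, of -0.06.

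Ndufs3, a core subunit next to the ubiquinone site of complex I (probe set 10847283), read 9.38, 9.28 and 9.38 in HC and 9.74, 9.74 and 9.72 in PFC, with 7.73, 7.56 and 7.86 in blood. HC lay below PFC in every rat (-0.39 ± 0.0932, limma adjusted p = 0.0296), but the call was lost when any 1 HC or PFC array was left out (adjusted p = 0.0903 to 0.138). Cox6a2, the heart and muscle isoform of subunit 6a, had the widest difference between the regions, 1.88-fold higher in PFC (-0.91 ± 0.161, adjusted p = 0.00612). Without rat 2 the difference was -0.86 and the call was lost (adjusted p = 0.154). All 6 core subunits of complex I were lower in HC on every array (-0.39 to -0.13), although Ndufs3 alone passed the test. For example, Ndufs1 read 10.36 on each HC array and 10.63 to 10.68 in PFC (-0.29 ± 0.11, limma adjusted p = 0.173).

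With the 6 brain arrays alone, 16 of the 78 members (20.5%) were lower in HC and none higher, against 13.1% and 12.7% of all. The 16 were chosen after their values were seen. They were Ndufs3, Ndufs1, Ndufa6, Ndufb9, Ndufb5, Ndufa9 and Ndufv1 of complex I, Sdhb, Uqcrc1, Cox6a2, Cox7b, Cox7a2 and Cox7a2l, and Atp5po, Atp5if1 and Atp5f1d of ATP synthase, with differences from -0.91 to -0.19. Uqcrc1, the other core protein of complex III, read 8.87, 8.82 and 8.87 in HC and 9.32, 9.09 and 9.14 in PFC (-0.33, limma adjusted p = 0.0143 on the brain arrays and 0.0655 on all). Of the 16, Cox6a2, Cox7b, Cox7a2, Cox7a2l and Atp5if1 were also called lower in brain than in blood, although Cox6a2 in PFC was not below blood. The log2 of the summed erythroid level was 9.53 to 10.28 in PFC and 8.67 to 9.16 in HC. That of the neuronal markers was 13.98 to 14.06 in PFC and 13.85 to 13.93 in HC, and that of the oligodendrocyte markers 11.07 to 11.69 and 12.01 to 12.29. The astrocyte sum was 13.28 to 13.36 in PFC and 13.57 to 13.62 in HC, where Gfap, its filament protein, was higher (1.55, limma adjusted p = 0.000427). The part of these cell types in the regional differences was not tested.

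**Figure D4:**
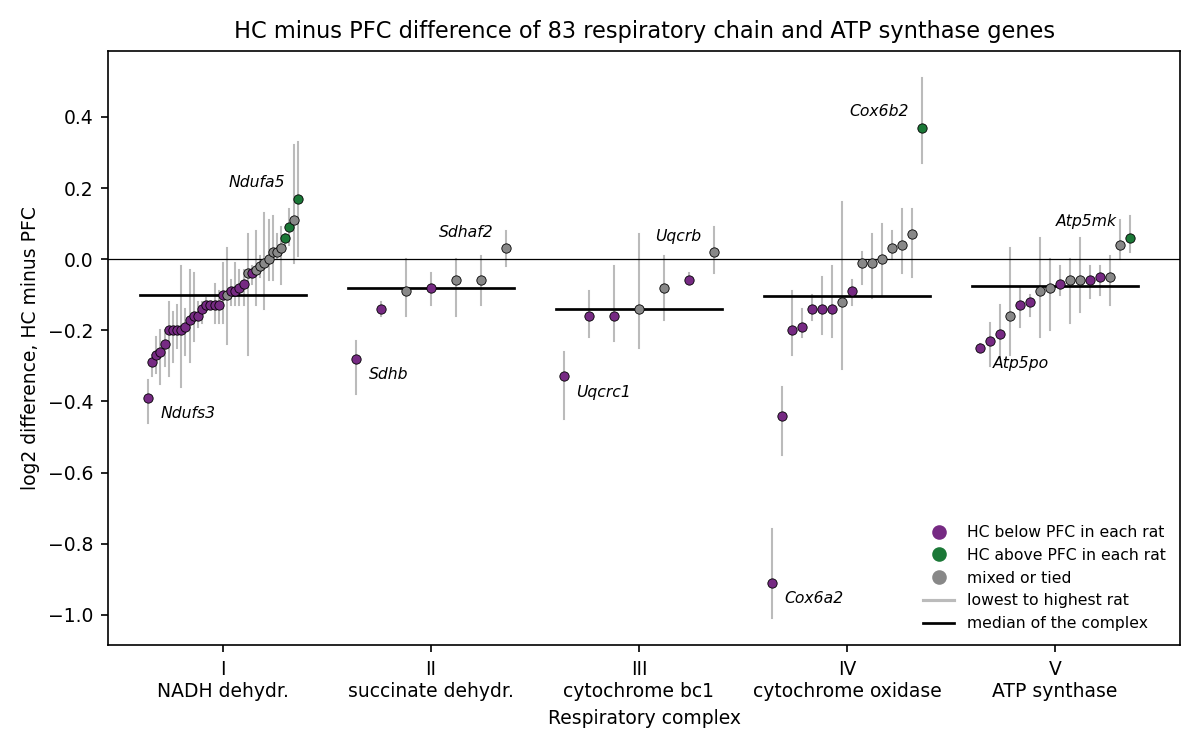
Log2 difference between HC and PFC (vertical axis, HC minus PFC) of each of the 83 genes, ordered within complexes I to V. Points are means over 3 rats, grey lines run from the lowest to the highest rat, and black bars are the medians of the complexes (-0.10, -0.08, -0.14, -0.11 and -0.07). Most points lie below 0, with Cox6a2 (-0.91) the farthest.

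Other genes of mitochondrial energy supply were followed in lists by role, and their counts stand beside 48.8% higher and 37.4% lower of all probe sets tested. The carriers of electrons outside the complexes were all 4 higher in brain, led by cytochrome c, Cycs (2.12 ± 0.0907), and Etfb of the electron transfer flavoprotein (1.53 ± 0.0824). Of 29 assembly factors with other names 23 were higher and 4 lower, with a median of 0.95, while 14 of the 19 genes of the housekeeping panel were higher, with a median of 1.13. The widest was Higd1a (2.71 ± 0.133), a hypoxia-induced protein of the inner membrane, followed by Tmem70 (2.23 ± 0.0801), which assembles ATP synthase. Of 20 genes for mitochondrial structure and import 18 were higher and none lower at either an adjusted or an unadjusted limma p under 0.05 (median 1.37), with the outer membrane channel Vdac1 at 6.79 to 7.45 in blood and 10.58 to 10.78 in brain (3.46 ± 0.134).

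Among carriers and uncoupling proteins, the nucleotide carrier Slc25a4, which exports ATP from mitochondria, read 6.97, 7.15 and 7.45 in blood, 11.72 to 11.76 in HC and 11.80 to 11.92 in PFC (4.62 ± 0.103). Ucp2, an uncoupling protein abundant in immune cells, read 12.52, 12.39 and 12.61 in blood, 8.22, 8.03 and 8.29 in HC, and 7.09, 6.97 and 6.88 in PFC. It was lower in brain (-4.92 ± 0.0895) and higher in HC than in PFC (1.20, limma adjusted p = 7.46e-05), against the direction of the respiratory genes. Of the 7 genes of this list tested 5 were higher and 2 lower in brain.

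Of 14 regulators of mitochondrial biogenesis 7 were higher and 2 lower, with a median of 0.08, a share of higher genes near that of all probe sets. The coactivator Ppargc1a, which drives mitochondrial biogenesis, read 4.54 to 4.71 in blood, under the 5.53 of the chemosensory probe sets, 7.55 on each HC array, and 7.96, 7.98 and 7.77 in PFC. It was also lower in HC than in PFC (-0.35, limma adjusted p = 0.0382). Nrf1, which encodes the factor of the NRF1 site, read 8.64, 8.70 and 8.68 in blood, 6.99 to 7.06 in HC and 6.78 to 6.88 in PFC, lower in brain (-1.73 ± 0.066). Its level ran against that of most genes of the respiratory chain, and a link between them was not tested. For the other activators whose sites were searched, Gabpa, of the Ets factor GABP, was not called (-0.01 ± 0.0774). Yy1 was lower by a smaller amount (-0.29 ± 0.0942). Of 7 genes for the removal of mitochondria 5 were lower in brain and 2 higher, against the 37.4% and 48.8% of all. Alox15, an enzyme that breaks down organelles in reticulocytes, was lower (-7.18 ± 0.155), as was Bnip3l, which marks mitochondria for removal in maturing red cells (-2.35 ± 0.0645), while its paralog Bnip3 was higher by 3.57 ± 0.0836. None of the subunits encoded in mitochondrial DNA was matched by symbol, so they were not analysed here.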

How the data were processed

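The authors quantile normalized the array intensities, summarized them per probe set with RMA and deposited the results, which are taken here as log2 values, since no source names the base. The number of arrays limits the precision. Of 29215 probe sets 29214 had values. The array annotation gave 15310 of them exactly 1 symbol, 323 more than 1 and 13581 none. The authors' detection p-values were not used here. In blood 14 probe sets, in HC 542 and in PFC 478 had the same value on all 3 arrays.

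Tissue and rat were taken from the labels. Arrays of a tissue are separate animals. Tissue was a factor with 3 levels in limma 3.58.1 (R 4.3.3), without a block, over the 16884 probe sets with a tissue mean above 6.2, and all p-values of genes are limma's, adjusted by Benjamini-Hochberg over them and called under 0.05. An exact permutation test of 3 arrays against 3 cannot go below 0.1, so none is given. Same-numbered arrays come from the same animal by their labels. Over probe sets, their deviations from the tissue means correlated by 0.14 to 0.29 between HC and PFC, 0.03 to 0.05 between blood and HC, and -0.08 to 0.05 between blood and PFC. The random block used statmod 1.5.0, and plots matplotlib 3.10.9 under Python 3.11.15. The fit was tested on simulated data for brain minus blood over 16884 probe sets. There 43% of planted log2 differences of 0.5 and 86% of those of 1 were recovered. The simulation gave all tissues the same spread and few probe sets a difference, unlike the data. These shares therefore do not give the sensitivity of the test on the data.

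Members and lists were chosen with earlier results of these data known. Members were named by this rule: the 3 widest higher and 3 widest lower in each complex among those called with the same direction in each rat, all called between HC and PFC, all Sdh subunits, the isoform families, those not tested, and up to 4 genes of each further list. Complex I core subunits as a group and a few genes so marked were added after their values were seen. Alternatives covered scaling, filter, block, variance model, thresholds, probe set per gene, members, arrays in the fit, and each array or rat left out in turn.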

Additional observations from a re-analysis of the deposited data

Results flagged for a closer look

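Cox6a2 was below blood in HC in each of the 3 rats and above blood in PFC in each of them, and the difference between the regions was -0.91 on the log2 scale (HC minus PFC, n = 3 rats, limma adjusted p = 0.00612). Its level is close to the presence cut-off, with tissue means of 6.54 in blood, 5.69 in HC and 6.60 in PFC.

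Ndufs3 was higher than blood in both regions, but less so in HC, and the difference between the regions passed the test at -0.39 (limma adjusted p = 0.0296, lower in HC in 3 of 3 rats). Because both regions are set against the same blood arrays, this is the same comparison as HC minus PFC.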

How the results depend on the processing

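Centring the arrays on the housekeeping panel left 34 members higher and 29 lower in brain, against 54 and 14, and moved the medians of complexes I to V to 0.22, 0.56, 0.25, -0.89 and -0.30, against -0.47 for all probe sets, with the sign of complex V turned. Cox8a turned to -0.67. Centring on the median moved complex I to 0.97 and all probe sets to 0.29, and structural subunits alone gave complex V a median of 0.51. With a log2 difference of at least 1 asked for, 31 members were higher and 5 lower in brain, and 0 lower in HC.

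The rat as a fixed replicate block gave 54 members higher and 12 lower in brain, and 2 lower and 0 higher in HC. Among the genes chosen by the naming rule it changed the call of Sdhaf1 alone. As a random block (consensus correlation 0.00257) it changed no call of a named gene.

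The count of members lower in HC than in PFC, 2 of 78, is the least stable. It was 1 without a filter on dim probe sets, 4 with a trended and robust variance, 16 on the brain arrays alone and 1 at an adjusted p under 0.01. It was 0 without rat 2, 1 without rat 5, rat 7 or any 1 HC or PFC array, 4 without the blood array of rat 2 or of rat 7 and 8 without that of rat 5, a range of 0 to 8. The cause was not tested. No alternative called any member higher in HC.

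Leaving out arrays or rats in turn gave 51 to 56 members higher and 11 to 14 lower in brain, and leaving out a rat gave a median of complex I of 0.81 to 0.96. The numbers of members present in each tissue stayed within 1.5 times under every alternative run. The calls of Cox7a2 and Cox6a2 between brain and blood were lost under several alternatives, among them without the blood array of rat 5 (limma adjusted p = 0.0574 and 0.103).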
